A study of Homo sapiens with 14 samples.

Results

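The moderate polysome pool of control MDA-MB-231 cells was compared with the heavy polysome pool of the same cells. MDA-MB-231 is a mesenchymal, triple-negative breast cancer line. The cells carried a lentiviral, doxycycline-inducible non-silencing shRNA (NS), the control for cells in which the translation factor DAP5 (gene EIF4G2) was silenced, and were given 1 µg/mL doxycycline over 6 days. In each of 2 independent cultures, called culture 1 and culture 2, cycloheximide-arrested lysate was separated on a sucrose gradient and the mRNA of the light, moderate and heavy pools and of the whole lysate was sequenced, which gave 4 of the 14 libraries of the series to the comparison made here. Light was defined by the study as 2 to 3 ribosomes per mRNA and heavy as 4 or more, while no ribosome number was given for the moderate pool in the sources used here, and no library of the DAP5-silenced cells was titled moderate. Their light polysome libraries carry, in the description, the letters that mark the moderate pool of the control cells, and they were not used here. All groups were shRNA-expressing populations of 1 cell line, so the data describe that line alone.

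All genes with at least 10 counts in 2 or more of the 4 libraries were taken, 14276 of the 58434 symbols in the table. Of these, 13105 had at least 10 counts in all 4 libraries, 242 passed in both moderate libraries with fewer in both heavy ones, and 46 did the reverse. Total counts lay between 28092151 and 30795910 in the 4 libraries, and in all 14 between 25899838 and 30795910. The 7 mesenchymal markers lay between 30.4 and 11705 CPM (read counts relative to the size of the library, with the TMM scaling factors of edgeR), with VIM at 1697 to 11705 and CD44 at 296 to 1191. Of 7 luminal markers, ESR1, FOXA1 and CDH1 were at most 0.727 CPM, PGR had no count, EPCAM was at 2.86 to 5.47, GATA3 at 9.69 to 13.9 and ERBB2 at 44.1 to 87.1 CPM. Of the leukocyte and endothelial markers, CD14 reached 2.30 CPM and the others did not exceed 0.650 CPM.

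An mRNA moves down a sucrose gradient according to how many ribosomes it carries. That number rises with the rate at which ribosomes initiate and with the time each one spends on the coding sequence, so that a long open reading frame can hold more ribosomes than a short one even at the same spacing. A pool of heavy polysomes is therefore usually rich in long coding sequences, and short mRNAs such as those of ribosomal proteins reach only a few ribosomes. A difference between pools is a difference in the composition of each pool, not in the number of mRNA molecules per cell.

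Between moderate and heavy polysomes 5758 of 14276 genes differed (40.3%) at an adjusted p under 0.05 (edgeR's quasi-likelihood test with the culture as a block, Benjamini-Hochberg adjustment over all genes tested). Of these, 2444 were higher in moderate (17.1% of genes tested) and 3314 higher in heavy (23.2%). With TMM scaling the larger differences lay more often on the heavy side. Among all 14276 genes, called or not, 2731 lay below −1 on the log2 scale of moderate over heavy, against 1391 above 1. The sign was the same in both cultures for 78.5% of all genes. The 99.8% among the genes called follows largely from the test, which picks genes by these same 2 differences. Across genes, which are not independent replicates, the log2 differences of the 2 cultures correlated with a Pearson's r of 0.772, as the plot of one culture against the other shows. The balance of the calls moved with the scaling: 42.4% of them were higher in moderate with TMM and 62.0% with plain library sizes, which moved the median of all genes from 0.14 to 0.42. Without the term for culture, 1247 genes differed (167 higher in moderate, which is 13.4% of the calls, and 1080 in heavy), and of the 61 genes named in the text that passed the test, 21 did not pass without it, with adjusted p between 0.0602 and 0.548. These were AGAP2-AS1, ATP5B, BTF3, C3, CANX, COL6A1, CSF3, ECE2, EEF1A1P5, EEF1E1, EIF3D, EIF4B, EIF4EBP1, EMILIN2, LMNA, MYCL, PDIA3, PSMD2, ROBO3, SNHG17 and TGFB2. A fit of 3 libraries without that term called 1301 genes with the moderate library of culture 1 left out, 4624 without the moderate library of culture 2, 1366 without the heavy library of culture 1 and 117 without the heavy library of culture 2. With 1 culture left out in whole, and the spread taken from the other control libraries, 607 genes were called in culture 2 and 1493 in culture 1.

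**Figure D1:**
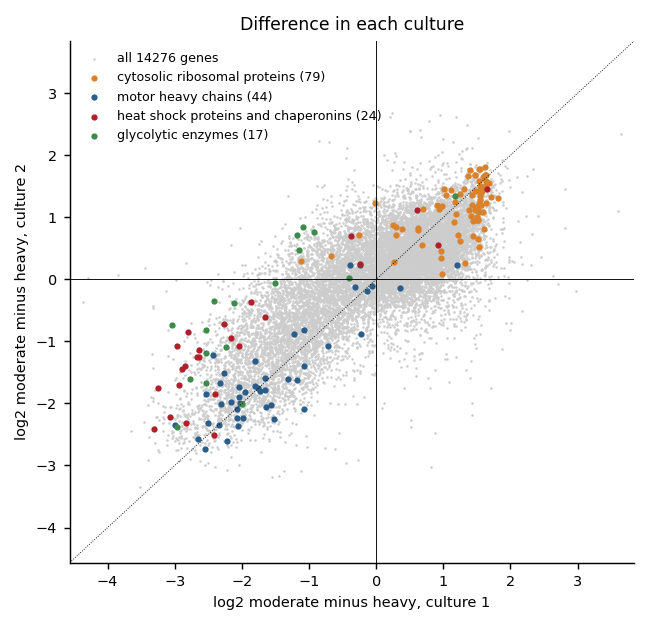
Log2 difference of moderate minus heavy in culture 1 (x axis) and culture 2 (y axis) for 14276 genes (grey), with members of 4 gene lists in colour and the line of equality dotted. Ribosomal protein mRNAs lie mostly at the upper right and motor heavy chains mostly at the lower left, while most glycolytic and heat shock mRNAs lie above the line, with a wider difference in culture 1.

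Coding length, taken as the longest coding sequence annotated for the gene in GENCODE v29 and known for 12353 of the genes tested, ordered the 2 pools. The median coding length was 681 nucleotides for the mRNAs higher in moderate, 2647.5 for those higher in heavy and 1437 for all. Of the 1196 mRNAs with 301 to 600 coding nucleotides, 62.1% were higher in moderate and 0.251% in heavy. Of the 582 mRNAs with more than 5000, 79.6% were higher in heavy and 0.344% in moderate. The median log2 difference was 0.91 in the first of these classes and −1.42 in the other, and it passed 0 between 1001 and 2500 nucleotides. The shortest class did not lie highest: the 198 mRNAs of at most 300 coding nucleotides had a median of 0.72, and none was higher in heavy. Across the 12353 genes Spearman's rho between coding length and the log2 difference was −0.75, with −0.70 in culture 1 and −0.72 in culture 2.

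**Figure D2:**
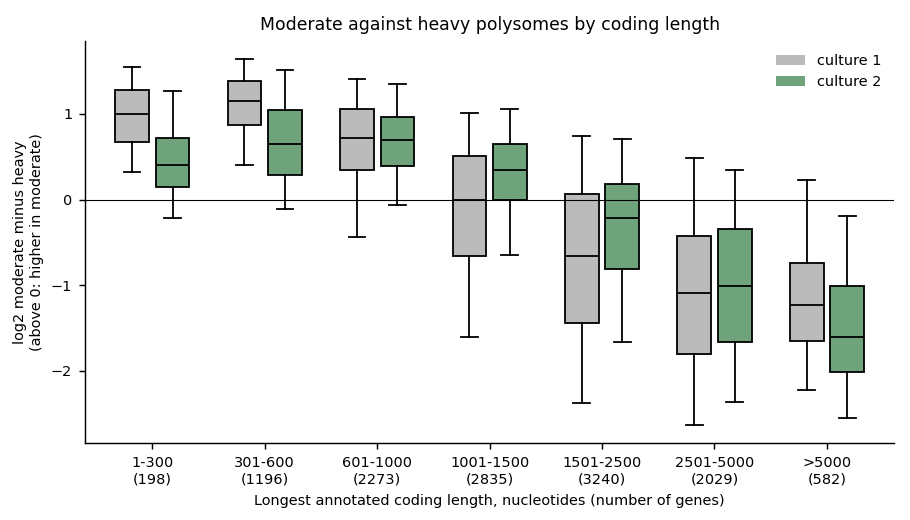
Log2 difference of moderate minus heavy by class of coding length, for each culture (boxes, quartiles with the median; whiskers, 5th and 95th percentiles), with the number of genes under each class. Medians lie above 0 up to 1000 nucleotides and below 0 from 1501 on, and in the class from 1001 to 1500 the median is near 0 in culture 1 and 0.35 in culture 2.

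The same order held for the counts as a whole. Coding sequences over 2500 nucleotides took 10.3% and 11.4% of the coding-gene counts of the moderate libraries of culture 1 and culture 2, and 21.1% and 27.3% of those of the heavy libraries. The heavy libraries were higher in both cultures and the pools did not overlap. The difference of the means was −13.3 percentage points, with a two-sided exact permutation p of 0.33, the smallest that 2 against 2 libraries allow. It was −6.09 points when the classes were set by the median of a gene's annotated coding lengths. The coding length at the middle of the counts was 975 and 1140 nucleotides in moderate, 1446 and 1653 in heavy, 801 and 906 in light polysomes, and 1209 and 1188 in total mRNA, so moderate lay between light and heavy and below the whole lysate in both cultures. Classed by the pool of the 3 in which its level was highest, 1418 genes peaked in moderate in both cultures, against 4352 in light and 4698 in heavy. The 1314 of those 1418 with a coding length had a median of 1023 nucleotides and an interquartile range of 810 to 1307.

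**Figure D3:**
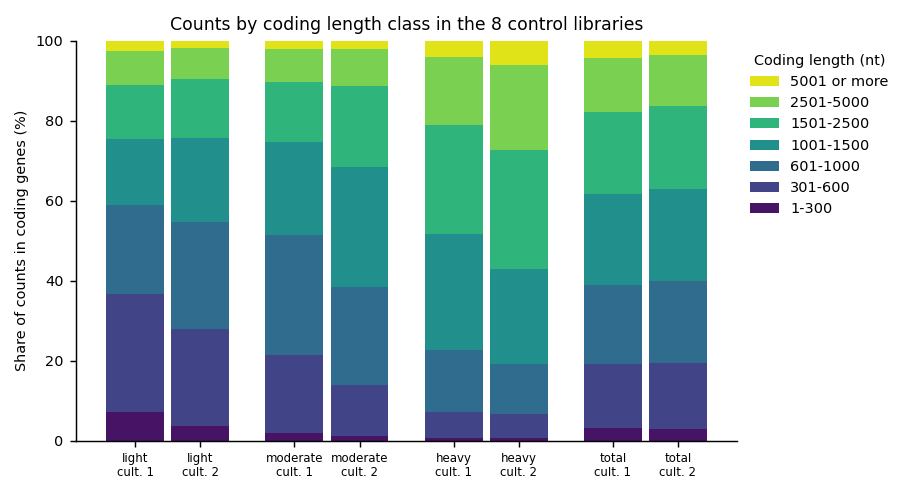
Share of the counts in coding genes (y axis, percent) taken by 7 classes of coding length in the 8 control libraries, ordered as light, moderate, heavy and total. Classes over 2500 nucleotides take 10.3% and 11.4% in the moderate libraries and 21.1% and 27.3% in the heavy ones.

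The highest log2 differences among genes of at least 10 CPM belonged to short mRNAs. TPGS1 (ENSG00000141933, chr19:507497-519654 on the plus strand of GRCh38, as are all gene positions here), a subunit of tubulin polyglutamylase, was at 11.8 and 20.3 CPM in the moderate libraries of culture 1 and culture 2 and at 4.05 and 4.14 CPM in the heavy ones. It was 3.78-fold higher in moderate (log2 1.92 ± 0.30 SE, adjusted p = 2.94e-07). MRPS18C (chr4:83455932-83469735), a protein of the small mitochondrial ribosomal subunit, was at 73.7 and 86.5 CPM in moderate and 22.6 and 25.5 CPM in heavy (log2 1.73 ± 0.29, adjusted p = 1.25e-06). NDUFB7 (chr19:14566078-14572062), an accessory subunit of respiratory complex I, was at 122 and 137 CPM in moderate and 39.2 and 42.2 CPM in heavy (log2 1.67 ± 0.32, adjusted p = 1.52e-05). In each of these the moderate libraries lay above both heavy ones. The others of the leading 10 were C19orf70 (a MICOS subunit), KISS1 (the precursor of kisspeptin), RPS10, PFDN5 (a prefoldin subunit), TMEM160, MRPL54 and NCBP2-AS2, with log2 differences between 1.68 and 1.77 and coding lengths of 297 to 639 nucleotides. NCBP2-AS2 is named as an antisense neighbour of NCBP2, and its count depends on how strand was treated, which is not given in the sources used here. RPS10 has near-identical processed copies in the genome that may share its reads.

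Among genes averaging at least 10 CPM, the 10 lowest log2 differences belonged to mRNAs with coding lengths of 2667 to 6891 nucleotides. MTHFD1 (chr14:64388031-64463457), the trifunctional enzyme of cytosolic folate metabolism, was at 44.8 and 110 CPM in moderate and at 473 and 827 CPM in heavy. It was 8.89-fold higher in heavy (log2 −3.15 ± 0.47, adjusted p = 9.74e-08). DCTN1 (chr2:74361154-74392087), the large dynactin subunit that tethers dynein to cargo and microtubules, was at 29.9 and 66.6 CPM in moderate and 284 and 457 CPM in heavy (log2 −3.01 ± 0.43, adjusted p = 2.96e-08). PARP1 (chr1:226360691-226408079), the DNA strand break sensor, was at 52.0 and 146 CPM in moderate and 510 and 908 CPM in heavy (log2 −2.97 ± 0.48, adjusted p = 4.49e-07). For all of these the heavy libraries lay above both moderate ones. SMARCA1, a chromatin remodeling ATPase, was 8.01-fold higher in heavy. ACO1 (aconitase and iron regulatory protein), CYFIP1 (a WAVE complex subunit), MCM2 (a replicative helicase subunit), NUP188 (a nucleoporin) and MAP4 (a microtubule-binding protein) had log2 differences between −2.96 and −2.86. C3, the central complement protein, differed far more between cultures than between pools: its level was 0.319 and 23.1 CPM in moderate and 2.91 and 177 CPM in heavy. Within each culture the log2 difference was −2.94 and −2.93, but the pools overlapped, and without the term for culture the adjusted p was 0.433. With the heavy library of culture 2 left out, the fit of the 3 remaining libraries gave 2.01 for C3 (adjusted p = 0.139).

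**Figure D4:**
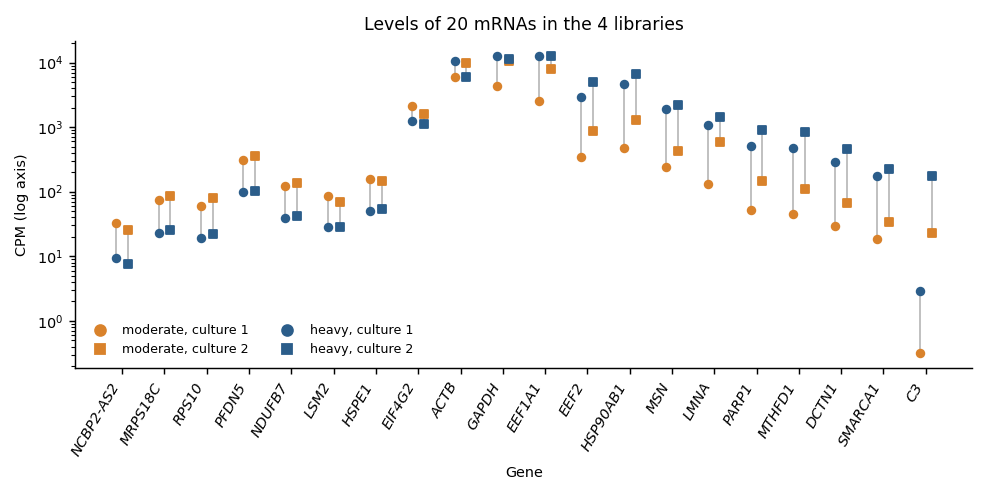
Level of 20 mRNAs (y axis, CPM, log axis) in the moderate (orange) and heavy (blue) libraries of culture 1 (circles) and culture 2 (squares), with a grey line joining the pools of 1 culture. Orange lies above blue from NCBP2-AS2 to EIF4G2, ACTB changes sides between cultures, and blue lies above orange from GAPDH to C3.

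None of the 79 cytosolic ribosomal protein mRNAs was higher in heavy and 55 (69.6%) were higher in moderate, with a median log2 difference of 1.29, against shares of 17.1% higher in moderate and 23.2% in heavy and a median of 0.14 over all genes tested. RPS10 was highest, at 59.3 and 79.0 CPM in moderate and 19.3 and 22.5 CPM in heavy (log2 1.71 ± 0.29, adjusted p = 1.28e-06). RPL4, the longest member with 1281 coding nucleotides, was lowest and changed sides between cultures: 997 and 2305 CPM in moderate, 2177 and 1878 CPM in heavy (log2 −0.42 ± 0.58, adjusted p = 0.591). The 79 mitochondrial ribosomal protein mRNAs that were tested showed the same pattern, with 59 higher in moderate, none in heavy and a median of 1.10. Of 23 aminoacyl-tRNA synthetase genes, whose products charge tRNAs and are long, 16 (69.6%) were higher in heavy, with a median of −1.77 (−1.03 without the moderate library of culture 1). AARS, the alanyl-tRNA synthetase, was at 47.2 and 86.3 CPM in moderate and 314 and 420 CPM in heavy (log2 −2.51 ± 0.42, adjusted p = 1.25e-06). The one gene of that list higher in moderate was EEF1E1, a short scaffold of the multisynthetase complex (log2 1.13 ± 0.28, adjusted p = 0.000921).

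Ribosomal proteins, elongation factors and a few other translation genes carry a 5′ terminal oligopyrimidine (TOP) tract, a C at the cap followed by C and T bases, through which mTOR signaling controls their translation. The starts of 5 genes are shown because they begin alike while the log2 differences of their mRNAs were not all on the same side of 0. Each runs from 15 bases before to 15 bases after the RefSeq transcript start (GRCh38.p14), 5′ to 3′ on the transcribed strand, with the pyrimidine run from the start in capitals.
BTF3, chr5:73498427-73498456, plus strand: tgtcacttccggcctCCCTTTagctgccat
RPS10, chr6:34426055-34426084, minus strand: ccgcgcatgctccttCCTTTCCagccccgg
EEF1A1, chr6:73521018-73521047, minus strand: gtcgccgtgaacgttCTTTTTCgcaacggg
EEF2, chr19:3985449-3985478, minus strand: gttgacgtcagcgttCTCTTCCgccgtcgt
EIF4B, chr12:53006441-53006470, plus strand: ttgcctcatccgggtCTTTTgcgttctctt
A run of at least 5 C or T bases that opens with C exactly at the start was found at 4.07% of the 35116 RefSeq starts in the table, at 60.3% of 78 starts of cytosolic ribosomal protein genes and at 18 of 24 starts of the elongation factor and other TOP list. Of the 27 genes of that list tested, 5 (18.5%) were higher in moderate and 8 (29.6%) in heavy, shares near the 17.1% and 23.2% of all genes tested. BTF3, the small beta subunit of the nascent chain complex, was at 1597 and 1361 CPM in moderate and 608 and 514 CPM in heavy. Its log2 difference was 1.40 ± 0.52 (adjusted p = 0.0249, but 0.107 without the term for culture). EEF2, the translocase of elongation with 2574 coding nucleotides, was at 346 and 872 CPM in moderate and 2974 and 4957 CPM in heavy (log2 −2.80 ± 0.62, adjusted p = 0.000166). EIF4B, a cofactor of the eIF4A helicase, was also higher in heavy (log2 −1.63 ± 0.45, adjusted p = 0.00258, and −1.01 with 0.185 without the moderate library of culture 1). EEF1A1, which delivers aminoacyl-tRNA, was at 2542 and 7849 CPM in moderate and 12826 and 12575 CPM in heavy. Its difference of −1.51 ± 0.76 did not pass the test (adjusted p = 0.102), nor without the term for culture (0.256). It did with DESeq2 (adjusted p = 0.000294), with limma on quantile-normalized values (0.0139) and with all 8 control libraries (0.0173). Without the moderate library of culture 2 the difference was −2.32. EEF1A1 has processed copies as well, and EEF1A1P5, one of them, differed by the same −1.51 ± 0.31 (adjusted p = 4.62e-05, and −0.72 with 0.264 without the moderate library of culture 1).

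Of 13 genes tested from a list of eIF4F subunits, the eIF4G family, their cofactors and repressors, and EIF3D, 3 were higher in moderate and 4 in heavy, shares also near those of all genes tested (17.1% and 23.2%). EIF4G1, the scaffold of eIF4F with 4818 coding nucleotides, was at 201 and 431 CPM in moderate and 1164 and 2275 CPM in heavy (log2 −2.47 ± 0.54, adjusted p = 0.000122), and its paralog EIF4G3 was higher in heavy too (log2 −1.96 ± 0.36, adjusted p = 6.30e-06). EIF3D, the eIF3 subunit through which DAP5 is recruited to capped mRNA, was at 125 and 437 CPM in moderate and 730 and 909 CPM in heavy (log2 −1.80 ± 0.49, adjusted p = 0.00227). It was at −0.91 without the moderate library of culture 1 (adjusted p = 0.249), and its call was also lost without either heavy library and without culture 1. EIF4EBP1, the short repressor of eIF4E, was higher in moderate (log2 0.87 ± 0.29, adjusted p = 0.0121, and 0.42 with 0.552 without the moderate library of culture 1). EIF4G2, which encodes DAP5 and is not silenced in these cells, was at 2100 and 1590 CPM in moderate and 1226 and 1107 CPM in heavy. Both moderate libraries lay above both heavy ones, and the difference of 0.65 ± 0.55 did not pass the test (adjusted p = 0.348), but passed with limma on quantile-normalized values (log2 0.81, adjusted p = 0.0179).

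Components of mitochondria and of small nuclear particles lay toward moderate polysomes. Of 76 nuclear-encoded subunits of the respiratory chain, 57 were higher in moderate and 7 in heavy, with a median of 1.13, where all genes tested gave 17.1% and 23.2%. The lowest was NDUFS1, the largest core subunit of complex I with 2223 coding nucleotides, at 37.8 and 74.3 CPM in moderate and 204 and 269 CPM in heavy (log2 −2.14 ± 0.38, adjusted p = 3.56e-06), and the most abundant, ATP5B, the catalytic beta subunit of ATP synthase, was also higher in heavy (2.82-fold, adjusted p = 0.0293, with the log2 difference at −0.87 without the moderate library of culture 1). Of 23 Sm and LSm genes, whose products form rings on small nuclear RNAs and on decaying mRNA, 14 (60.9%) were higher in moderate and none in heavy. LSM2 was highest, at 85.9 and 68.8 CPM in moderate and 28.7 and 28.0 CPM in heavy (log2 1.44 ± 0.29, adjusted p = 3.89e-05). Its whole coding sequence is shown, with start and stop codons in capitals, to give the scale of the template on which its ribosomes sit: 288 bases with the stop codon, 95 codons without it (GENCODE v29 transcript, chr6, minus strand).
LSM2: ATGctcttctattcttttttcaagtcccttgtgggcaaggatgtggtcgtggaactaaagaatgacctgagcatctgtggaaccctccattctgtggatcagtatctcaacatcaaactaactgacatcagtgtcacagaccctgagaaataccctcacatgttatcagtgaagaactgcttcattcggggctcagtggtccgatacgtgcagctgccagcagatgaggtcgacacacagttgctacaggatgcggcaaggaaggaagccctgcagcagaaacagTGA
Of 37 proteasome subunits, 11 (29.7%) were higher in moderate, among them PSMB9, an inducible catalytic subunit of the core (log2 1.43 ± 0.29, adjusted p = 3.33e-05), and 3 (8.11%) in heavy, among them PSMD1 and PSMD2, long scaffolds of the regulatory particle (log2 −2.72 ± 0.43 with adjusted p = 2.60e-07, and −1.79 ± 0.55 with adjusted p = 0.00666, the latter −1.09 without the moderate library of culture 1). Over all genes tested the shares were 17.1% and 23.2%. Of 55 replication-dependent histone genes 39 did not reach the minimum of 10 counts. Of the 16 tested, 7 were higher in moderate and none in heavy. The medians were 1.09 in culture 1 and 0.26 in culture 2, and 0.04 with the moderate library of culture 1 left out. Some of the 16, called ones among them, reached 10 counts only in the moderate libraries, so the filter itself favoured moderate in this list. Beyond coding length none of the 16 was called in either direction.

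Adhesion, matrix, motor and chromatin genes lay toward heavy polysomes. Of 14 integrin subunits tested, 11 were higher in heavy (78.6%), with a median of −1.89 (−1.24 without the heavy library of culture 2) and none higher in moderate, against 23.2% and 17.1% of all genes tested. ITGAV was lowest, at 11.2 and 20.3 CPM in moderate and 71.9 and 104 CPM in heavy (log2 −2.52 ± 0.30, adjusted p = 4.09e-10), and ITGB1, the common beta chain, was at 197 and 308 CPM in moderate and 863 and 1349 CPM in heavy (log2 −2.13 ± 0.50, adjusted p = 0.000318). ITGAE was the highest at 0.58 ± 0.29, which did not pass the test (adjusted p = 0.105) except with plain library sizes (0.0210). ITGA7, among the 11 called, had 1 and 7 counts in the moderate libraries and 14 and 15 in the heavy ones. It reached the minimum count only in heavy, so the filter itself favoured heavy for this gene, which also enters the median. Laminin and collagen chains were higher in heavy for 27 of 31 (87.1%), with a median of −1.78 (−0.97 without the heavy library of culture 2). COL6A1 also differed between cultures, at 21.7 and 129 CPM in moderate and 154 and 760 CPM in heavy (log2 −2.69 ± 0.44, adjusted p = 6.66e-07, but 0.111 without the term for culture, and log2 −1.02 without the heavy library of culture 2). Of 44 kinesin, dynein and myosin heavy chains, 36 (81.8%) were higher in heavy, with a median of −1.84, among them MYH9, the heavy chain of non-muscle myosin (log2 −2.64 ± 0.52, adjusted p = 2.10e-05), and KIF20A, a kinesin of cytokinesis (log2 −2.68 ± 0.43, adjusted p = 3.51e-07). Of 66 chromatin modifiers and remodelers, 52 (78.8%) were higher in heavy, with a median of −1.25, and DNMT1, the maintenance DNA methyltransferase, was at 79.5 and 145 CPM in moderate and 561 and 960 CPM in heavy (log2 −2.77 ± 0.48, adjusted p = 1.70e-06). LMNA, lamin A, a structural gene of the nuclear envelope that the study followed, was at 134 and 593 CPM in moderate and 1083 and 1443 CPM in heavy (log2 −2.15 ± 0.54, adjusted p = 0.000803, but 0.134 without the term for culture, and log2 −1.09 without the moderate library of culture 1). Of 25 receptor tyrosine kinases, 12 were higher in heavy and none in moderate, with a median of −0.80 (−0.49 without the heavy library of culture 2). EGFR was higher in heavy (log2 −1.66 ± 0.39, adjusted p = 0.000297), and FGFR1, at 151 and 234 CPM in moderate and 134 and 158 CPM in heavy, differed by 0.37 ± 0.38 (adjusted p = 0.452, and 0.0455 with limma).

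Chaperone, cytoskeletal and glycolytic mRNAs also lay toward heavy polysomes. Their median coding lengths were near that of all genes, at 1640 nucleotides for the heat shock list, 1302 for the glycolytic one and 1338 for actins and tubulins, and the difference was wider in culture 1 than in culture 2. Of 24 genes for heat shock proteins and chaperonins, cytosolic except for the mitochondrial HSPE1 and HSPD1, 18 were higher in heavy and 2 in moderate, against 23.2% and 17.1% of all genes tested, with medians of −2.53 in culture 1 and −1.11 in culture 2, and of −1.91 in both together (−1.04 without the moderate library of culture 1). HSP90AB1, the constitutive HSP90, was at 473 and 1271 CPM in moderate and 4674 and 6739 CPM in heavy (log2 −2.85 ± 0.66, adjusted p = 0.000313). HSPE1, the short mitochondrial co-chaperonin, was at the other end, at 157 and 149 CPM in moderate and 49.8 and 53.9 CPM in heavy (log2 1.56 ± 0.34, adjusted p = 0.000104). Of 23 endoplasmic reticulum chaperones, 13 were higher in heavy, among them CANX (calnexin, log2 −2.17 ± 0.54, adjusted p = 0.000808), and 4 (17.4%) in moderate, a share like that of all genes. Of 17 glycolytic genes, 9 (52.9%) were higher in heavy and none in moderate, with medians of −2.12 in culture 1 and −0.38 in culture 2, and of −1.38 in both together (−0.30 without the moderate library of culture 1 and −2.21 without that of culture 2). HK1, hexokinase, led them (log2 −2.67 ± 0.49, adjusted p = 5.65e-06), while the short TPI1 lay on the other side at 1.25 ± 0.55 without passing the test (adjusted p = 0.0615), which it did with DESeq2 (0.000359). Of 17 genes in the actin and tubulin list, 7 were higher in heavy and none in moderate. ACTB, often used as a reference, was at 6081 and 10016 CPM in moderate and 10571 and 5990 CPM in heavy, so it lay on opposite sides in the 2 cultures (log2 −0.80 and 0.74), and the sign of its mean difference turned with the scaling. GAPDH was at 4399 and 10706 CPM in moderate and 12549 and 11176 CPM in heavy (log2 −0.79 ± 0.75, adjusted p = 0.412). Its log2 difference was −1.43 without the moderate library of culture 2 and −0.15 without that of culture 1. The sign for GAPDH turned with quantile normalization.

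**Figure D5:**
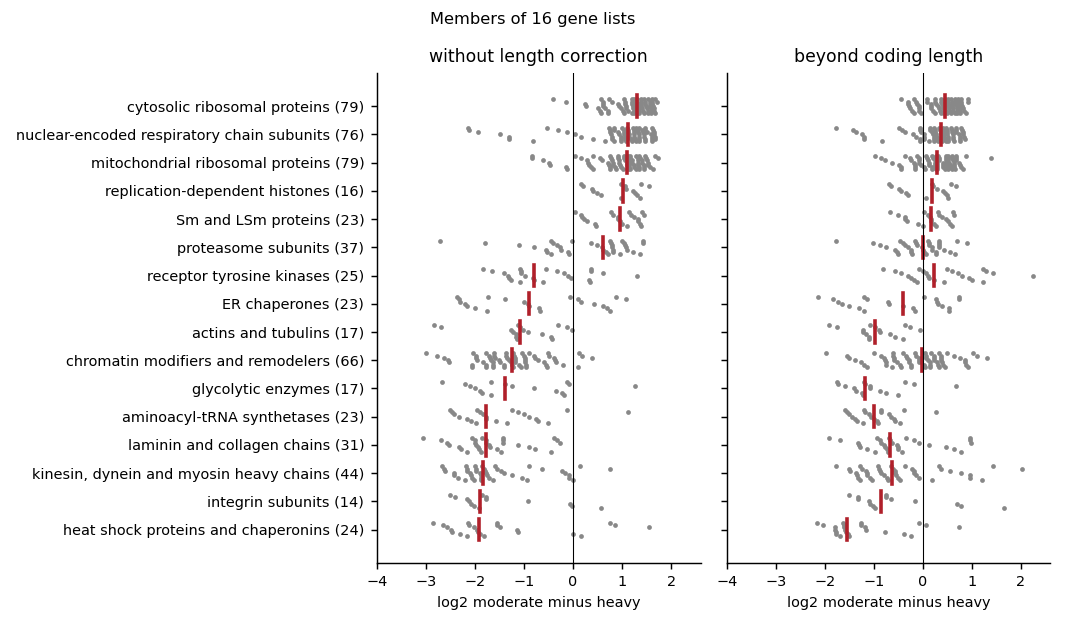
Log2 difference of moderate minus heavy for the members (grey points) of 16 gene lists, with the list median in red and the number of genes tested in parentheses, without length correction (left) and beyond coding length (right). With the correction the median of the chromatin list moves from −1.25 to −0.02 and that of the heat shock list from −1.91 to −1.54.

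To ask which mRNAs differed from others of their own length, each library's trend of level on coding length was entered as an offset into the same test. Beyond coding length 3737 of 12353 genes differed (30.3%), 1815 of them higher in moderate (14.7%) and 1922 in heavy (15.6%), and Spearman's rho with length was −0.02. Of the coding genes called without the correction, 2187 were also called with it and 3210 were not, 1550 were called only with it, and 6 turned from higher in heavy to higher in moderate. These calls rested on the pairing of the cultures: without the term for culture no gene passed (edgeR, with 2350 at an unadjusted p under 0.05). With 1 library left out and no such term, 284 passed without the moderate library of culture 1, 2442 without that of culture 2, 41 without the heavy library of culture 1 and 1 without that of culture 2.

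Among the lists, the lean of chromatin genes toward heavy was no longer present at the median (−0.02, with 9 higher in moderate and 18 in heavy). The median of ribosomal proteins was reduced from 1.29 to 0.46, with 6 of 79 called. Sm and LSm genes had 2 of 23 higher in moderate and 1 in heavy, and proteasome subunits 2 of 37 and 3. Respiratory chain subunits had 16 of 76 higher in moderate and 7 in heavy, and mitochondrial ribosomal proteins 17 of 79 and 4. Higher in heavy were 8 of 14 integrin subunits (2 in moderate), 14 of 31 laminin and collagen chains (4 in moderate) and 22 of 44 motor heavy chains (6 in moderate). Receptor tyrosine kinases had 8 of 25 higher in moderate, 1 in heavy and a median of 0.22. FGFR1 was one of the 8 (1.23 ± 0.28, adjusted p = 0.000148). Heat shock and chaperonin genes had 18 of 24 toward heavy and a median of −1.54 (−1.91 in culture 1 and −0.98 in culture 2), aminoacyl-tRNA synthetases had 17 of 23 toward heavy, and glycolytic genes had 11 of 17 and a median of −1.19 (−1.59 and −0.60). Over all coding genes 14.7% were higher in moderate and 15.6% in heavy. The median over all coding genes was 0.04.

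Single genes stood furthest from their length class on both sides. MSN and EZR, moesin and ezrin, which link the plasma membrane to actin and have 1731 and 1758 coding nucleotides, both lay toward heavy. MSN (chrX:65588377-65741931) was at 245 and 424 CPM in moderate and 1891 and 2229 CPM in heavy, with −2.27 ± 0.41 beyond length (adjusted p = 1.40e-06), and EZR at 61.4 and 154 CPM against 480 and 720 CPM, with −2.17 ± 0.33 (adjusted p = 6.38e-09). HSP90AB1 (−2.17), MTHFD1 (−2.15) and PDIA3 (−2.13), a disulfide isomerase of the endoplasmic reticulum, completed the lowest 5. Without the heavy library of culture 2 these values were −1.87, −1.77 and −1.38. On the moderate side, ROBO3 (chr11:124865386-124881470), an axon guidance receptor, was at 27.6 and 22.2 CPM in moderate and 14.2 and 11.2 CPM in heavy (2.13 ± 0.24 beyond length, adjusted p = 5.45e-15), and ECE2 (chr3:184276011-184293031), an endothelin-converting enzyme, at 28.8 and 32.8 CPM against 9.91 and 15.7 CPM (2.12 ± 0.24, adjusted p = 5.45e-15). EMILIN2, a matrix glycoprotein, followed at 1.94 ± 0.26. NACA, the alpha partner of BTF3, had the highest value, 2.27 ± 0.36, but its longest annotated coding sequence of 6234 nucleotides belongs to a long isoform. With the median of its annotated coding lengths it was at 0.67 (adjusted p = 0.188), and DNAH14 likewise fell from 1.98 to 0.46 (adjusted p = 0.173). EIF4G2 was higher in moderate than other mRNAs of its length, by 1.56 ± 0.42 (adjusted p = 0.00159).

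The 16 mRNAs that the study listed as DAP5-dependent lay toward heavy polysomes in these control cells, with 12 higher in heavy, 1 in moderate and a median of −1.72, where all genes tested gave 23.2% and 17.1%. The study chose them on libraries that include these heavy ones, so their direction is not independent evidence. TP53BP1, a DNA damage response adaptor, was at 9.81 and 17.0 CPM in moderate and 57.4 and 95.7 CPM in heavy (log2 −2.52 ± 0.30, adjusted p = 3.22e-10). CDK12, a kinase of transcription elongation, had −1.84 ± 0.35 (adjusted p = 1.44e-05). The exception was MYCL, near the limit of detection at 1.39 and 0.874 CPM in moderate and 0.421 and 0.452 CPM in heavy (log2 1.35 ± 0.48, adjusted p = 0.0184). Its call was lost with limma (adjusted p = 0.143), with no filter on low counts (0.0628) and with any 1 library left out. DESeq2 gave MYCL no adjusted p. Beyond coding length 11 of the 16 were higher in heavy and 1 in moderate, with a median of −0.79, where all coding genes gave 15.6% and 14.7%.

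Among 192 lincRNA genes 20 (10.4%) were higher in moderate and 2 (1.04%) in heavy, and among 193 antisense genes 25 (13.0%) and 1 (0.518%), against 17.1% and 23.2% of all genes tested. Among 294 processed pseudogenes 68 (23.1%) were higher in moderate and 39 (13.3%) in heavy, and their reads may come in part from the parent genes. The snoRNA hosts, spliced transcripts that carry small nucleolar RNAs in their introns, had 5 of 20 higher in moderate and none in heavy. SNHG17 was at 40.3 and 28.8 CPM in moderate and 13.9 and 18.9 CPM in heavy (log2 1.07 ± 0.29, adjusted p = 0.00209, and 0.46 without culture 1), and GAS5 at 112 and 102 CPM against 63.5 and 76.3 CPM (0.62 ± 0.32, adjusted p = 0.111, but 0.0116 with plain library sizes and 0.0134 with limma). None of the 7 nuclear long noncoding RNAs tested passed in either direction (edgeR, with 0 at an unadjusted p under 0.05, and 0 with DESeq2). AGAP2-AS1 (log2 1.12 ± 0.28, adjusted p = 0.000951) was one of the highest noncoding genes of at least 10 CPM. Of 19 cytokine and chemokine mRNAs, which are short, 9 (47.4%) were higher in moderate and 1 in heavy, TGFB2 (log2 −0.97 ± 0.30, adjusted p = 0.00696, and −0.61 without the heavy library of culture 1). The median of that list was 0.72, and −0.24 without the moderate library of culture 2. CSF3 differed several-fold between cultures, at 28.2 and 254 CPM in moderate and 15.4 and 126 CPM in heavy (log2 0.94 ± 0.34, adjusted p = 0.0193, and 0.548 without the term for culture). Its log2 difference was −1.33 without the moderate library of culture 2 and 3.21 without the heavy library of culture 2.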

How the data were processed

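Single-read RNA-seq counts per gene symbol were deposited by the authors as 1 table of whole-number counts for the 14 libraries, with no normalization. STAR 2.6.0a, limma and the build hg19 are listed in the submitters' processing notes, and the table's own name points to featureCounts and to a reverse strand setting, whose use is not given in the sources used here. Total counts were 28092151 to 30795910 per library used here. Precision was limited by counting error for genes near the minimum count, and for abundant ones by how far the difference varied between the 2 cultures. With the culture block 1 residual degree of freedom remained per gene, so the spread was estimated mainly across genes. P-values measure how far the moderate minus heavy difference varied between the 2 cultures. The spread of the levels between cultures was taken out by the block. The study calls the 2 cultures independent and the labels number them.

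Counts were tested with edgeR 4.0.16 in R 4.3.3 (quasi-likelihood test, robust, TMM factors, culture as a block, Benjamini-Hochberg adjustment, threshold 0.05) on genes with at least 10 counts in 2 or more of the 4 libraries. Libraries were paired because both pools of 1 number share a code in the labels. Deviations of same-numbered libraries from their group means correlated at r = 0.558. For results beyond coding length, a lowess trend of log2 CPM on coding length (span 0.3) was fitted per library and entered as an offset. Coding length came from GENCODE v29 (GRCh38), matched by symbol for 37621 of 58434 symbols and by older symbol for 526 more. Only GENCODE coordinates are printed, never hg19 ones. Transcript starts came from the RefSeq table (GRCh38.p14). Lists were described by counts and medians. DESeq2 1.42.0, limma 3.58.1, library sizes without TMM, other count filters, no block, all 8 control libraries, other lengths and each library left out were alternatives. The statistics were checked on simulated data. Mitochondrially encoded genes were not analysed here.

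Genes were named by rule: the 10 highest and 10 lowest called differences of at least 10 CPM mean level on the same side in both cultures, the extremes and the most abundant gene of each list, any member of lists with up to 16 genes tested, the 5 highest and 5 lowest beyond length, the leading noncoding genes, and 5 genes that the study followed. Not every gene the rule allows is named. The members and gene lists were chosen with earlier results of these data known.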

Additional observations from a re-analysis of the deposited data

How the results depend on the processing

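The called genes shared with each alternative had the same sign without exception in the plain comparison. Beyond coding length 2640 of 2651 shared calls did with the median coding length and 2383 of 2392 with transcript length, of 3737. Of the 61 named genes that passed the test, all but MYCL also passed with DESeq2, which gave MYCL no adjusted p and so did not call it. The culture block decided most calls. With no replicate block 1247 genes differed (167 higher in moderate, 1080 in heavy), and beyond coding length 0, 0 and 0. Plain library sizes raised the genes higher in moderate from 2444 to 4228, and no filter on low counts lowered them to 1599. With libraries or cultures left out the number called ranged from 117 to 4624 in all, 1 to 1684 for moderate and 113 to 2940 for heavy, and beyond length, where single libraries only were left out, from 1 to 2442, 0 to 1030 and 1 to 1412. The smallest total came without the heavy library of culture 2, and the smallest number higher in moderate without culture 1. The share of counts over 2500 nucleotides differed by −6.09 percentage points when the median coding length defined the classes, and by −15.9 to −10.8 with 1 culture left out. Named genes whose direction turned were ACTB (0.25 with plain library sizes, 0.85 with limma on quantile-normalized values, and −0.80 to 0.58 with libraries left out), GAPDH (0.18 with limma), RPL4 (−1.13 to 0.18 with libraries left out), C3 (−8.12 to 2.01) and CSF3 (−1.33 to 3.21). The median of the cytokine list turned to −0.24 without the moderate library of culture 2. The cause was not tested. With 2 cultures, genes near the minimum of 10 counts could be called only at large differences.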

Other observations

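Gene families outside the lists above were counted by symbol after the data had been seen, and they are given as values. Over all genes, 17.1% were higher in moderate and 23.2% in heavy, and beyond coding length 14.7% and 15.6%. Of 49 DDX and DHX RNA helicase genes, which unwind RNA in splicing, ribosome assembly and translation, 37 were higher in heavy and none in moderate, with a median log2 difference of −1.60 (−1.94 in culture 1 and −1.28 in culture 2). Their median coding length was 2349 nucleotides, and beyond coding length 29 were higher in heavy and 2 in moderate, with a median of −0.80. The 428 zinc finger genes with ZNF symbols, which encode mostly DNA-binding repressors, had a shorter median coding length of 1740 nucleotides and a median difference of 0.04, with 22 higher in moderate and 40 in heavy. Beyond coding length 108 of them were higher in moderate and 10 in heavy, with medians of 0.62 in culture 1 and 0.18 in culture 2.

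Of 56 RAB GTPases, short regulators of vesicle traffic, 17 were higher in moderate and 3 in heavy, with a median of 0.62 that was −0.04 beyond coding length. Of 214 solute carriers, the membrane transporters, 25 (11.7%) were higher in moderate and 42 (19.6%) in heavy, and beyond coding length 31 and 20, shares near or below those of all genes.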
